A study of Mus musculus with 6 samples.

Results

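Nuclear receptors are transcription factors that mostly bind small lipid-soluble ligands, and 36 of them that lie outside the core circadian clock were followed here in mouse liver. The genes were taken from a written list of receptors for sterols, bile acids, fatty acids, xenobiotics, retinoids, thyroid hormone, vitamin D and steroids, together with orphan receptors for which no ligand governs activity in a settled way. Of these, 35 were measured, out of 18193 genes with a probe set of their own, and Nr1h2 was not analysed here, for want of a probe set that names it alone in the annotation used. Each gene was read at its brightest probe set, by the mean of the log2 values of all 6 livers, and the other probe sets are given where they differed. The question was how the receptor genes were expressed when a tyrosinemia drug was withdrawn from mice that depend on it.

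Whole-liver RNA came from 3 FRG-7dNTBC mice and 3 FRG+NTBC mice, 1 Affymetrix mouse genome array per mouse. All 6 were male FRG mice, 12 weeks old, on a C57Bl/6J background, with deletions of Fah, which completes the breakdown of tyrosine, and of Rag2 and Il2rg, without which mature T, B and NK cells do not form. NTBC (nitisinone) inhibits Hpd, which acts upstream of Fah. The FRG-7dNTBC mice had been without NTBC for the last 7 days, and the FRG+NTBC mice received it at 16 mg/L in the drinking water throughout. That water was sweetened with dextrose, and the chow was low in tyrosine and phenylalanine. Wild-type mice were not analysed here, so every difference is between 2 states of the same immune-deficient, Fah-deficient host, and the hour at which livers were taken is not given in the sources used here.

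Most receptors of this kind bind DNA at short repeats of a hexamer, many of them as a dimer with a retinoid X receptor (RXR), and recruit coactivators or corepressors that open or close the chromatin of their targets. In the liver they set bile acid synthesis, fatty acid oxidation and synthesis, drug metabolism and the response to glucocorticoids, while HNF4α holds much of the hepatocyte programme in place. Some members of the family act on the genes of other members: FXR induces Nr0b2, whose product SHP lacks a DNA-binding domain and represses bile acid synthesis.

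The 250 bases before the transcription start were taken from RefSeq (GRCm38.p6) for 32 of the 35 genes. Those printed belong to the 3 genes that fell most, to Pparg, which rose, and to Nr0b2. Ppard, which rose more than Pparg, is not printed, and its window held none of the motifs marked below. Where RefSeq gives several starts, the one with most motif matches is shown. These choices were made after the values were seen. Capitals mark matches, on either strand, to AGGTCA (the hexamer of nuclear receptors, read as TGACCT on the other strand), CACGTG (an E-box) or TGACNNNGC (the core of the antioxidant response element). Sequences run 5′ to 3′ on the strand of the gene.
Ppara chr15:85735526-85735775 (+): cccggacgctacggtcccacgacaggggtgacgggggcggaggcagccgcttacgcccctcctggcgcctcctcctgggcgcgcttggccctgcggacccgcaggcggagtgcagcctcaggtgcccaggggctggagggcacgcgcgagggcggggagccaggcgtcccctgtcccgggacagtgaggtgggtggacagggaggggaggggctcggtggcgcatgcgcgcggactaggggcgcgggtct
Rxra chr2:27709042-27709291 (+): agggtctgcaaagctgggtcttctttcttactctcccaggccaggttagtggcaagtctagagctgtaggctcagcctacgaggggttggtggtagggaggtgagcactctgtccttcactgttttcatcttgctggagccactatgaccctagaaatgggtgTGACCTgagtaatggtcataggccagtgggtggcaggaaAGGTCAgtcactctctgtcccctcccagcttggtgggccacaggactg
Nr6a1 chr2:38784516-38784765 (-): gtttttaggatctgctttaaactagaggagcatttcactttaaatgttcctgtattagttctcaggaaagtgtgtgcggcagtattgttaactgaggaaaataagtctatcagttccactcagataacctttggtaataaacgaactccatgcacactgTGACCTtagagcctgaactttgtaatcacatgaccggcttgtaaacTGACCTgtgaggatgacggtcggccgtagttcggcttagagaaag
Pparg chr6:115362099-115362348 (+): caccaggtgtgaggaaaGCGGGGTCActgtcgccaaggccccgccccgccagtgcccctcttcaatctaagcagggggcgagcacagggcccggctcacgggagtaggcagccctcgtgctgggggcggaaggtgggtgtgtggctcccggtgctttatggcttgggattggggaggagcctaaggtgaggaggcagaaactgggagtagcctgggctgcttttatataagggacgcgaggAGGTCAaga
Nr0b2 chr4:133553126-133553375 (+): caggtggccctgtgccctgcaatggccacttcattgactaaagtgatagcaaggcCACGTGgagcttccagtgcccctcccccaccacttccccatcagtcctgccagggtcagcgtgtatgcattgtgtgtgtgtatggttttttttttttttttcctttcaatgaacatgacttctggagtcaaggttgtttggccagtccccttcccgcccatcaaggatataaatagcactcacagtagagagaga
The Ppara window held none of these motifs, and the Nr0b2 window held a CACGTG at -195 to -190 relative to the start. AGGTCA lay at -87 to -82 and -48 to -43 of this start of Rxra, in opposite orientations, and at -91 to -86 and -45 to -40 of this start of Nr6a1, both on the other strand. In the Pparg window AGGTCA lay at -9 to -4 and TGACNNNGC, on the other strand, at -233 to -225. Over all members, 8 of 32 held AGGTCA in such a window, against 15.8% of 27025 genes, 4 held CACGTG, against 6.86%, 6 held TGACNNNGC, against 11.5%, and none held CAAAGTCCA, an HNF4 site, against 0.45%. A TGACCT can overlap TGACNNNGC, though not in the windows printed. These are matches of letters only, and binding was not measured.

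Receptor transcripts were mostly lower after NTBC withdrawal. Of the 35 genes, 18 (51.4%) fell and 2 (5.7%) rose at an adjusted p under 0.05 (limma, Benjamini-Hochberg over all 45037 probe sets), where 12.7% of all 18193 genes fell and 17.4% rose. With a fold of 2 or more besides, 9 receptors fell and 2 rose, against 4.96% and 8.96% of all genes. The median log2 fold change was -0.50 over the 35 receptors and -0.05 over all genes. A negative difference was found in 29 receptors, dim ones included, and the share over all genes was not counted. In 21 receptors all 3 FRG-7dNTBC values lay below every FRG+NTBC value, and in 2 above, against 23.4% and 22.8% of all genes. Scaling the arrays to a common 75th percentile gave 20 receptors lower and 2 higher, and turned the split of all genes to 3573 lower and 2675 higher, against 2319 lower and 3167 higher as deposited. The falls were spread over every class of receptor, with 3 of 4 receptors for sterols and bile acids or their partners, 1 of 3 PPARs, 1 of 2 xenobiotic receptors, 2 of 6 retinoid receptors, 1 of 3 receptors for thyroid hormone and vitamin D, 3 of 5 steroid and estrogen-related receptors, 5 of 9 HNF4, COUP-TF and other orphans, and 2 of 3 NR4A genes. In the sterol and bile acid, xenobiotic and NR4A classes, each of these calls was lost when 1 or another single mouse was left out. In these bulk samples, fewer cells of a type and less RNA per cell cannot be told apart.

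**Figure D1:**
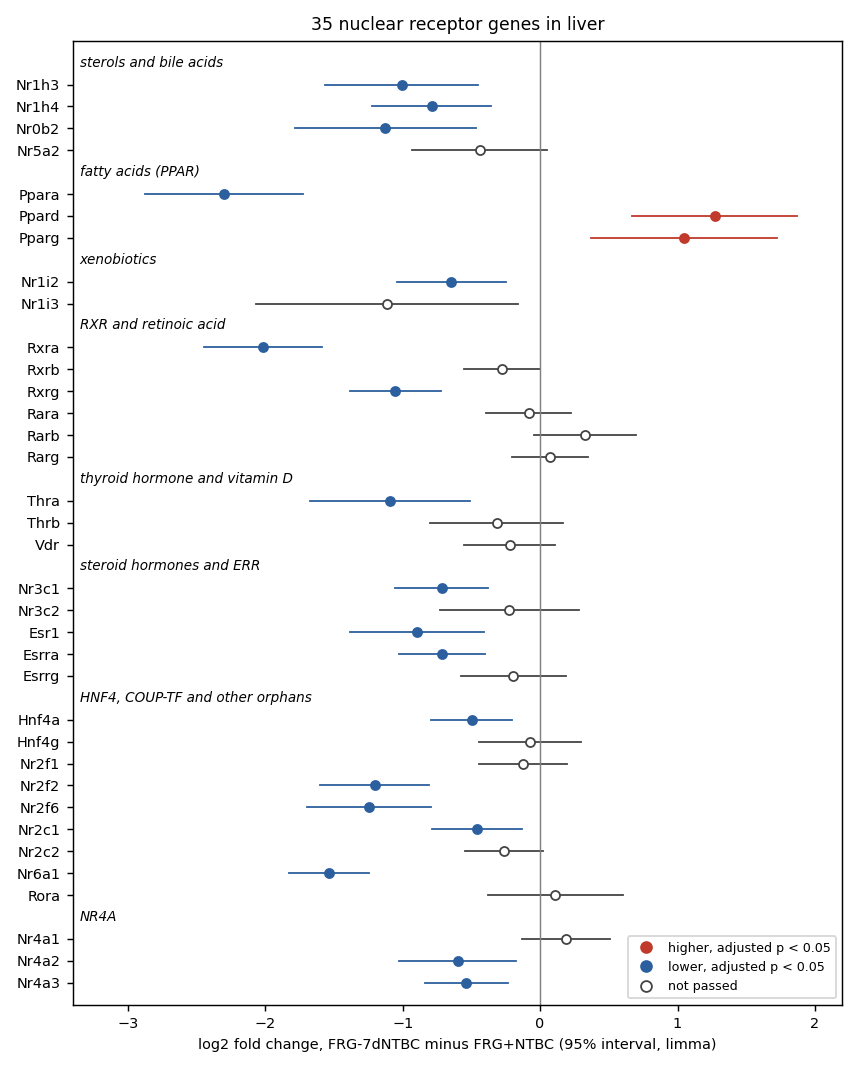
Log2 fold change (x axis, FRG-7dNTBC minus FRG+NTBC, 3 mice each) of the 35 receptor genes, grouped by ligand class, with 95% intervals from limma. The 18 filled points left of 0 fell, the 2 right of 0 (Ppard and Pparg) rose, and the 15 open points did not pass an adjusted p of 0.05.

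Arrays of the same group correlated at r = 0.98 to 0.993 across probe sets and arrays of different groups at 0.93 to 0.955. Of 8 hepatocyte markers 4 fell, namely Pck1 (-2.48 on the log2 scale), Ass1 (-2.38, at a dim probe set), Cyp2e1 (-1.17) and Cps1 (-0.73), while Alb and Ttr did not pass (0.08 and -0.01), and the summed intensity of the 8 was 94170 to 102100 in FRG-7dNTBC livers and 112000 to 116900 in FRG+NTBC livers. Of 8 Kupffer cell and macrophage markers, 5 rose (Cd68, Cd5l, Vsig4, Marco and Timd4), with sums of 1927 to 4621 in FRG-7dNTBC livers and 1595 to 2208 in FRG+NTBC livers. In the endothelial list 2 of 8 rose (Lyve1 and Clec4g) and in the stellate cell list 1 of 9 (Lrat), and no call was made among 4 neutrophil, 5 cholangiocyte and 6 T, B and NK cell markers, the last with mean intensities of 8.50 to 60.8. For comparison, 17.4% of all genes rose and 12.7% fell. The part of these markers in the receptor results was not tested. As a reading of the floor of the arrays, 13 of 14 genes of other tissues averaged 5.34 to 55.4. The remaining gene, Prm1, averaged 225 and was called lower (log2 fold change -0.79, adjusted p = 0.00231). The median log2 fold change of the 14 was -0.14. The 8 receptors that averaged no more than 55.4 were Nr2f1, Hnf4g, Vdr, Esrrg, Thrb, Rara, Nr4a2 and Rarb, of which only Nr4a2 was called. All of these averages are means over both groups. For 3 called receptors the lower group alone lay in or at the edge of the range of 5.34 to 55.4. They were Rxrg (37.5 to 47.2) and Nr6a1 (55.0 to 56.9) in FRG-7dNTBC livers, and Ppard (38.3 to 62.2) in FRG+NTBC livers. The sizes of these differences are limited by the floor.

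The PPARs, fatty acid receptors that pair with RXR, moved in both directions. Ppara, which encodes the main fatty acid sensor of hepatocytes, had an intensity of 580.0, 744 and 413 in FRG-7dNTBC livers, against 2149.8, 3468 and 2856 in FRG+NTBC livers. This 4.92-fold fall was the largest among the 35 receptors (log2 fold change -2.30, SE 0.25, adjusted p = 0.000484), and the other probe sets of the gene fell 4.66-fold and 3.74-fold. Ppard, whose product drives fatty acid oxidation in many tissues, read 153, 93.0 and 91.1 in FRG-7dNTBC livers, against 62.2, 38.9 and 38.3 in FRG+NTBC livers. Pparg, best known for adipocyte formation and lipid storage, read 229, 280.1 and 119 in FRG-7dNTBC livers, against 105, 82.1 and 100.4 in FRG+NTBC livers. The groups did not overlap for either gene, and replicate 1 of both groups was the highest of its group for Ppard, while replicate 3 of the FRG-7dNTBC mice lay nearest to the FRG+NTBC mice for Pparg. Ppard rose 2.41-fold (log2 fold change 1.27, SE 0.26, adjusted p = 0.00857), while its other probe set showed no difference (-0.01). That other probe set read 18.8 to 23.6 over both groups, within the range of genes of other tissues (5.34 to 55.4). A change in Ppard could be missed at that level. Pparg rose 2.07-fold (log2 fold change 1.05, SE 0.29, adjusted p = 0.0316), a call that held without FRG-7dNTBC replicate 3 (adjusted p = 0.000809) and was lost without any other mouse (adjusted p = 0.0686 and 0.109 without FRG-7dNTBC replicates 2 and 1, and 0.0678, 0.113 and 0.0752 without FRG+NTBC replicates 1, 2 and 3). Both genes are also expressed in macrophages, of whose 8 markers 5 rose, and the part of these cells was not tested.

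**Figure D2:**
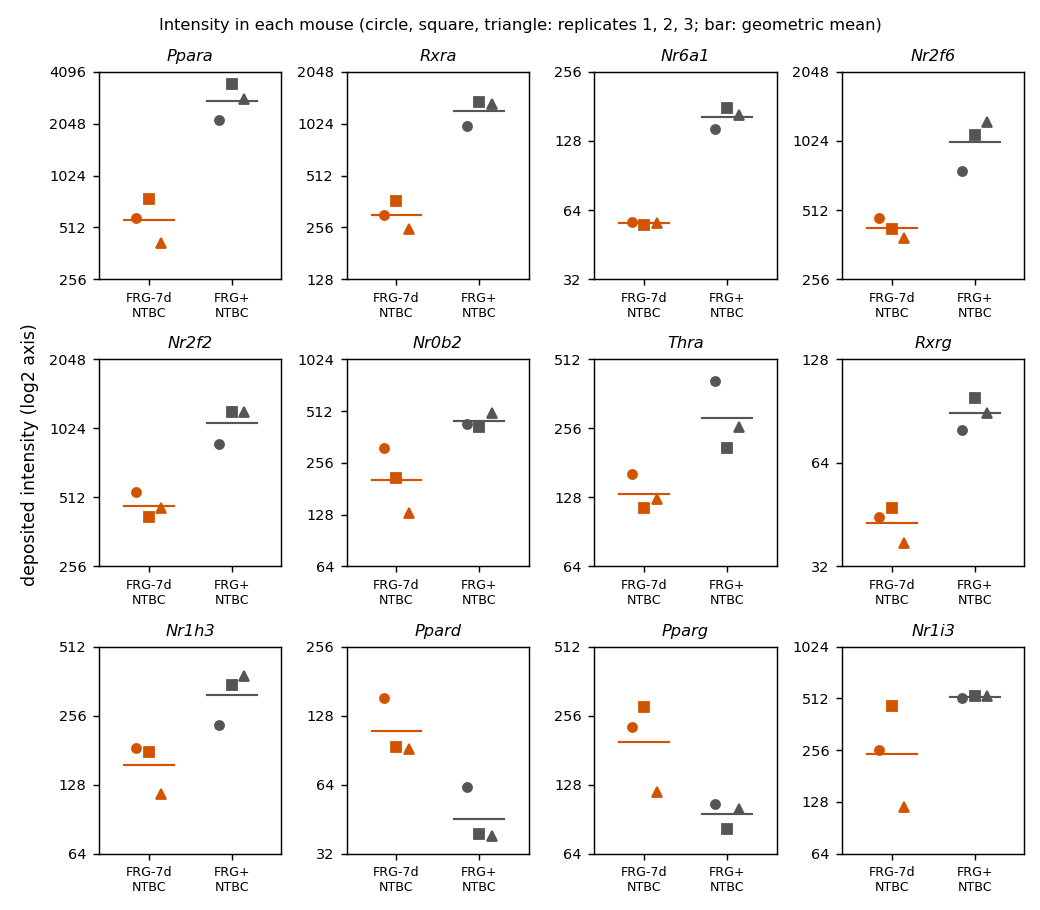
Deposited intensity (y axis, log2 scale) in each of 3 FRG-7dNTBC livers (orange, left) and 3 FRG+NTBC livers (grey, right) for 12 receptor genes, with bars at the geometric means. The groups do not overlap in any of the 12 panels, and Nr1i3, which did not pass the test, spans 119 to 461 after withdrawal, against 512 to 530.1 on NTBC.

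Among the retinoid receptors, 2 of 3 RXR genes fell and none of the 3 RAR genes passed the test. Rxra, the principal RXR of hepatocytes and the partner of FXR, LXR, PXR, CAR, PPAR and thyroid hormone receptors, read 302, 362 and 251 in FRG-7dNTBC livers, against 989, 1370.0 and 1342 in FRG+NTBC livers. All 3 mice without NTBC lay at less than every mouse on it, a 4.05-fold fall (log2 fold change -2.02, SE 0.19, adjusted p = 0.000256). The size of this fall depended on the probe set, since the other probe sets of Rxra were 1.24-fold and 1.48-fold lower without passing the test, and the mean of all probe sets of the gene gave -0.96. Rxrg, the isotype of muscle and brain, read 44.6, 47.2 and 37.5 in FRG-7dNTBC livers, against 79.9, 99.0 and 89.3 in FRG+NTBC livers (log2 fold change -1.05, SE 0.14, adjusted p = 0.00135), again without overlap. Rxrb, the isotype found in most tissues, read 671, 609 and 671 in FRG-7dNTBC livers, against 792, 838 and 734 in FRG+NTBC livers. Its difference of -0.28 (95% interval -0.55 to 0.00) did not pass (adjusted p = 0.128), though the groups did not overlap and it passed when the arrays were scaled to a common 75th percentile or quantile normalized (adjusted p = 0.0479 and 0.0353). The retinoic acid receptor genes Rara, Rarb and Rarg differed by -0.08 (95% interval -0.39 to 0.23), 0.33 (95% interval -0.05 to 0.70) and 0.07 (95% interval -0.21 to 0.35), and none passed.

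Of the 4 genes for sterol and bile acid receptors and their partners, 3 fell. Nr1h4 encodes FXR, the bile acid receptor, and read 1105, 910.2 and 729 in FRG-7dNTBC livers, against 1859, 1448 and 1409 in FRG+NTBC livers (log2 fold change -0.79, SE 0.19, adjusted p = 0.0158). Nr0b2 encodes SHP, the repressor that FXR induces, and read 313, 209 and 131 in FRG-7dNTBC livers, against 431, 413 and 501 in FRG+NTBC livers, a 2.18-fold fall (log2 fold change -1.13, SE 0.29, adjusted p = 0.0211). Nr1h3 encodes LXRα, the oxysterol receptor that turns on cholesterol export and fatty acid synthesis, and read 185, 177 and 117 in FRG-7dNTBC livers, against 232, 349.7 and 383 in FRG+NTBC livers, a 2.01-fold fall (log2 fold change -1.01, SE 0.24, adjusted p = 0.0169). Groups were separate for all 3 genes, and FRG-7dNTBC replicate 3 was the lowest mouse in each. These calls rested in part on single mice: Nr0b2 lost its call without FRG+NTBC replicate 1, 2 or 3 (adjusted p = 0.0586, 0.0594 and 0.0728), Nr1h3 without FRG+NTBC replicate 2 or 3 (0.0704 and 0.0621) and Nr1h4 without FRG+NTBC replicate 1 (0.0542). Nr5a2 encodes LRH-1, an activator of Cyp7a1, Cyp8b1 and Nr0b2, and read 739, 501 and 838 in FRG-7dNTBC livers, against 771, 976 and 1031 in FRG+NTBC livers. Here the groups overlapped, and the difference of -0.44 (95% interval -0.93 to 0.05) did not pass (adjusted p = 0.164).

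Both xenobiotic receptors had lower means after withdrawal. Nr1i2 encodes PXR, which binds drugs and bile acids, and read 372, 272 and 309 in FRG-7dNTBC livers, against 572, 505 and 416 in FRG+NTBC livers (log2 fold change -0.65, SE 0.17, adjusted p = 0.0251). Its call was lost without FRG-7dNTBC replicate 2 or FRG+NTBC replicate 1 or 2 (adjusted p = 0.0658, 0.0813 and 0.0845), and its other probe set gave -0.40 without passing. Nr1i3 encodes CAR, the phenobarbital-responsive receptor, and read 256, 461 and 119 in FRG-7dNTBC livers, against 512, 530.1 and 530.1 in FRG+NTBC livers. The mice on NTBC lay within a narrow range while those without it spread widely, with replicate 2 close to the FRG+NTBC mice, and the 2.17-fold difference did not pass (log2 fold change -1.12, SE 0.41, adjusted p = 0.0809). Without FRG-7dNTBC replicate 2 the log2 fold change was -1.58 (adjusted p = 0.00557), and Nr1i3 also passed under 75th percentile scaling and quantile normalization (0.037 and 0.0387).

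Of the receptors for thyroid hormone and vitamin D, Thra was called. Thra, which encodes the thyroid hormone receptor α of heart, brain and bone, read 162, 115 and 126 in FRG-7dNTBC livers, against 413, 211 and 259.6 in FRG+NTBC livers, a 2.13-fold fall (log2 fold change -1.09, SE 0.25, adjusted p = 0.0145), with FRG+NTBC replicate 1 far above its group. Another probe set fell by 1.04 on the log2 scale and the remaining one gave -0.53 without passing. Thra overlaps the clock gene Nr1d1 on the opposite strand, and Nr1d1 also fell (-0.93). Thrb, which encodes the main thyroid hormone receptor of hepatocytes, and Vdr, the vitamin D receptor, which hepatocytes hardly express, were both dim, with differences of -0.32 (95% interval -0.80 to 0.17) and -0.22 (95% interval -0.55 to 0.11).

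In the steroid receptor class the glucocorticoid receptor gene fell. Nr3c1 read 393, 324 and 437 in FRG-7dNTBC livers, against 584, 644 and 657 in FRG+NTBC livers (log2 fold change -0.72, SE 0.15, adjusted p = 0.0081), with no overlap, and of its 6 probe sets 2 were lower and 4 did not pass, these 4 running from -0.51 to 0.24. Esr1, estrogen receptor α, read 474, 419 and 357 in FRG-7dNTBC livers, against 572, 809 and 982 in FRG+NTBC livers (log2 fold change -0.89, SE 0.21, adjusted p = 0.016), a call lost without FRG+NTBC replicate 2 or 3 (adjusted p = 0.064 and 0.0501). A further probe set of Esr1 fell 2.51-fold, and its last and dim probe set did not pass. Esrra encodes ERRα, an orphan that works with PGC-1 coactivators on mitochondrial genes, and read 407, 317 and 324 in FRG-7dNTBC livers, against 572, 560.3 and 576 in FRG+NTBC livers (log2 fold change -0.71, SE 0.14, adjusted p = 0.00621). The FRG+NTBC mice lay within a narrow range for Esrra and every FRG-7dNTBC mouse lay below it. Nr3c2, the mineralocorticoid receptor, and Esrrg, encoding ERRγ, gave -0.22 (95% interval -0.73 to 0.28) and -0.20 (95% interval -0.58 to 0.19) and did not pass.

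Hnf4a, the orphan receptor gene that hepatocyte identity rests on, read 3743, 3281 and 3929 in FRG-7dNTBC livers, against 4871, 5518 and 5043 in FRG+NTBC livers. The groups did not overlap and this probe set fell 1.41-fold (log2 fold change -0.50, SE 0.13, adjusted p = 0.0225), but the other 3 probe sets of Hnf4a did not pass and lay between -0.01 and 0.40, so that the mean of all 4 gave 0.01. The call was also lost without FRG-7dNTBC replicate 1 or 2 (adjusted p = 0.0606 and 0.0646) and without FRG+NTBC replicate 2 or 3 (0.0867 and 0.0546). Its paralogue Hnf4g, a gene of gut and kidney, was near the floor of the arrays and gave -0.07 (95% interval -0.45 to 0.30).

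Nr2f6, Nr2f2 and Nr6a1, orphans of the COUP-TF and GCNF type, fell more than 2-fold. Nr2f6, which encodes the repressor EAR2, read 474, 422 and 385 in FRG-7dNTBC livers, against 760.1, 1089.9 and 1243 in FRG+NTBC livers (log2 fold change -1.25, SE 0.20, adjusted p = 0.00248), and its other probe set fell 2.89-fold. Nr2f2, which encodes COUP-TFII, a repressor known for venous and lymphatic identity, read 541, 422 and 458 in FRG-7dNTBC livers, against 873, 1209 and 1209 in FRG+NTBC livers (log2 fold change -1.20, SE 0.17, adjusted p = 0.00163). Of its 6 probe sets 5 fell, by up to 4.14-fold. Nr6a1 encodes GCNF, an orphan known from germ cells and from silencing of pluripotency genes in mouse embryos, and read 56.9, 55.0 and 56.1 in FRG-7dNTBC livers, against 145, 179 and 165 in FRG+NTBC livers. The 3 FRG-7dNTBC livers differed by less than 2 units of intensity, at the edge of the range of genes of other tissues. The 2.90-fold fall had the smallest adjusted p among the 35 receptors (log2 fold change -1.54, SE 0.13, adjusted p = 0.000158). Another probe set of Nr6a1 fell as well (adjusted p = 0.00151), the 3 dim ones did not pass, and the mean of all 5 gave -0.60.

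Nr2c1 and Nr2c2 encode TR2 and TR4, orphans that repress globin genes. Nr2c1 read 134, 151 and 128 in FRG-7dNTBC livers, against 215, 167 and 187 in FRG+NTBC livers (log2 fold change -0.46, SE 0.14, adjusted p = 0.0456), the call nearest to the threshold, which held without FRG-7dNTBC replicate 2 and was lost without any other mouse (adjusted p up to 0.128). Its other probe sets ran from -0.74 to 0.58, and 1 of them was lower (-0.58). Nr2c2 gave -0.26 (95% interval -0.55 to 0.02) and did not pass, although all 3 FRG-7dNTBC mice lay below the FRG+NTBC mice and it passed after quantile normalization (adjusted p = 0.05). Nr2f1, encoding COUP-TFI of the nervous system, was at the floor of the arrays and gave -0.12 (95% interval -0.44 to 0.19).

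Rora, which encodes RORα, an activator of Bmal1 and of lipid genes in the liver, gave the least uniform picture. Its probe set with the highest mean read 1314, 803 and 1209 in FRG-7dNTBC livers, against 1201, 861 and 982 in FRG+NTBC livers, which overlapped. The log2 fold change was 0.11 (95% interval -0.38 to 0.60) and did not pass. Of the 9 probe sets of Rora, 3 rose, by up to 2.46-fold, and 2 fell, by up to 2.45-fold. At the probe set that rose most the values were 955, 809 and 936 in FRG-7dNTBC livers, against 355, 286 and 481 in FRG+NTBC livers. At the probe set that fell most they were 112, 77.2 and 120.3 in FRG-7dNTBC livers, against 232, 252 and 261 in FRG+NTBC livers. No mouse overlapped between groups at either, and Rora was the only 1 of the 35 receptors with calls in both directions. Which transcripts these probe sets read was not tested.

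The NR4A receptors are orphans induced within minutes by many stimuli. Nr4a3 read 88.0, 71.0 and 83.9 in FRG-7dNTBC livers, against 123, 118 and 111 in FRG+NTBC livers (log2 fold change -0.54, SE 0.13, adjusted p = 0.0182), and lost its call without FRG-7dNTBC replicate 2 or FRG+NTBC replicate 1 or 2 (adjusted p = 0.0512, 0.0566 and 0.064). Its other probe sets gave -0.37 and -0.17 and did not pass. Nr4a2 read 47.8, 32.2 and 33.6 in FRG-7dNTBC livers, against 64.0, 57.3 and 49.2 in FRG+NTBC livers (log2 fold change -0.60, SE 0.19, adjusted p = 0.0444), with values as low as those of genes of other tissues. The Nr4a2 call was lost without any mouse other than FRG-7dNTBC replicate 1 (adjusted p up to 0.134), and the log2 fold change was 0.02 where probe sets that may match several transcripts were left out. Of the 6 probe sets of Nr4a2, 2 were lower, and the others lay between -0.18 and 0.37 without passing. Nr4a1 gave 0.19 (95% interval -0.13 to 0.51) and did not pass.

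The 35 receptors had 97 probe sets, of which 34 fell and 5 rose, where 13.9% of all probe sets fell and 14.0% rose. For 13 receptors 1 probe set stood alone, and for 13 of the other 22 another probe set had another call. Among the genes with a call and more than 1 probe set, the fall was found at every probe set of Ppara, Nr2f6 and Esrra. Leaving out each of the 6 mice in turn, 10 of the 20 called receptors passed every time: Ppara, Rxra, Nr6a1, Nr2f6, Nr2f2, Thra, Rxrg, Nr3c1, Esrra and Ppard. Over the 20 called receptors, FRG-7dNTBC replicate 1 lay nearest to the FRG+NTBC mean in 12, replicate 2 in 4 and replicate 3 in 4.

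**Figure D3:**
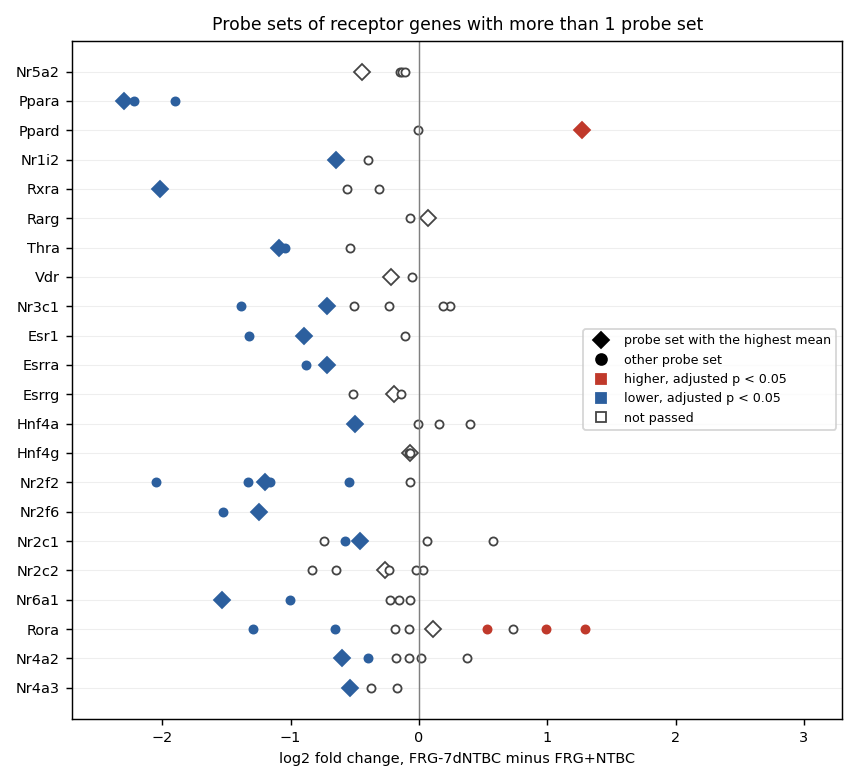
Log2 fold change (x axis, FRG-7dNTBC minus FRG+NTBC) of each probe set of the 22 receptor genes with more than 1, with diamonds for the probe set used. Ppara, Nr2f6 and Esrra fell at each probe set, whereas the probe sets of Rora lie on both sides of 0, from -1.29 to 1.30.

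Of 13 further receptors of the family, those of the clock, the gonads and the nervous system among them, 9 were measured, with none higher and 3 lower, against 17.4% and 12.7% of all genes: Nr1d1 (log2 fold change -0.93, SE 0.21, adjusted p = 0.0118) and Nr1d2 (log2 fold change -0.51, SE 0.15, adjusted p = 0.0361), which encode the clock repressors REV-ERBα and REV-ERBβ, and the dim Esr2 (-0.43). The count of 3 was 1 without FRG-7dNTBC replicate 1 or FRG+NTBC replicate 1 or 3, and 0 without FRG+NTBC replicate 2. Of 14 clock genes 3 rose (Clock, Bmal1 and Cry1) and 7 fell, with Clock at 1.83, Bmal1 at 1.35, Dbp at -4.59, Per3 at -2.91 and Hlf at -1.90 on the log2 scale. Several receptor transcripts cycle over the day in liver, and the part of the hour of sampling in their differences was not tested.

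Coregulators, the proteins through which receptors act, moved both ways. Of 24 listed, 22 were measured. Of these, 8 rose and 4 fell, against 17.4% and 12.7% of all genes, with a median log2 fold change of 0.17. Under 75th percentile scaling or quantile normalization 5 rose, where 2675 and 2812 of all 18193 genes did. Ppargc1b, which encodes PGC-1β, a coactivator of ERRα and of lipid synthesis, read 302, 162 and 228 in FRG-7dNTBC livers, against 969, 1252 and 904 in FRG+NTBC livers, a 4.62-fold fall (log2 fold change -2.21, SE 0.24, adjusted p = 0.00046). Its relative Ppargc1a, encoding PGC-1α, the fasting-induced coactivator of PPARα and HNF4α, averaged 106 ± 22.6 in FRG-7dNTBC livers and 188 ± 38.0 in FRG+NTBC livers (SD, n = 3 each; log2 fold change -0.84, SE 0.21, adjusted p = 0.019). The third family member, Pprc1, rose instead, reading 313, 284 and 375 in FRG-7dNTBC livers, against 69.1, 119 and 95.7 in FRG+NTBC livers (log2 fold change 1.80, SE 0.21, adjusted p = 0.000687). No mouse overlapped between groups for these 3 genes. Nrip1, encoding the corepressor RIP140, and Ncoa7, a coactivator, rose 2.56-fold and 2.31-fold, followed by Sirt1 (0.97) and Ncoa4 (0.85), while the arginine methyltransferase gene Carm1 and Ncoa2 fell (-0.89 and -0.63).

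Known targets of the receptors moved in both directions, with 23 of 78 measured target genes higher and 24 lower, against 17.4% and 12.7% of all genes. The same shares stand beside the counts of each target list below. The values of the targets are given as group means with SD over 3 mice each. Of 18 PPARα targets, 11 rose, against 17.4% of all genes, and 2 fell (5 under either scaling, 4 without FRG+NTBC replicate 1), with a median of 1.005 on the log2 scale, and Ppara itself fell. Pdk4, which shuts off pyruvate oxidation, averaged 749.9 ± 395 in FRG-7dNTBC livers and 31.9 ± 6.07 in FRG+NTBC livers (log2 fold change 4.45, SE 0.33, adjusted p = 0.000109). Fgf21, the fasting hormone, Cd36, a fatty acid uptake protein, and Ehhadh, the peroxisomal bifunctional enzyme, rose 6.73-fold, 6.22-fold and 4.26-fold. Acaa1b, a peroxisomal thiolase, averaged 8153 ± 1158 in FRG-7dNTBC livers and 16199 ± 395 in FRG+NTBC livers and Fabp1, the liver fatty acid carrier, 11120.0 ± 1052 in FRG-7dNTBC livers and 19597 ± 1153 in FRG+NTBC livers, and both fell. Cpt1a, the entry step of mitochondrial fatty acid oxidation, gave -0.57 (95% interval -1.06 to -0.08) and did not pass (adjusted p = 0.0802). Several of these genes answer to other regulators as well.

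Of 9 FXR targets, 2 rose and 3 fell (median -0.26). Abcb11, the bile salt export pump, averaged 1442 ± 304 in FRG-7dNTBC livers and 4614 ± 599.5 in FRG+NTBC livers, a 3.23-fold fall (log2 fold change -1.69, SE 0.19, adjusted p = 0.00055). The phospholipid transfer protein gene Pltp and Fgfr4, the receptor for the gut hormone that shuts off bile acid synthesis, fell 5.17-fold and 3.76-fold, whereas Apoc2 and the phospholipid flippase gene Abcb4 rose (1.16 and 0.88). Among 11 LXR targets 5 fell and 1 rose (median -0.17). The falls were in genes of fatty acid synthesis and lipid handling, namely Scd1 (11.0-fold), Fasn (5.91-fold), Srebf1 (4.04-fold), Pltp, which also stands in the FXR list, and Abcg8 (2.11-fold). Abcg1, a cholesterol exporter, rose (0.51), and its relative Abca1 gave 0.36 (95% interval -0.03 to 0.75) and did not pass. The rise of Abcg1 was lost under either scaling and without FRG-7dNTBC replicate 1 or FRG+NTBC replicate 1 or 2.

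Among 9 PXR and CAR targets 5 rose and 1 fell (median 1.19), with Nr1i2 lower and Nr1i3 not called. Cyp2b10, the usual readout of CAR, averaged 437 ± 162 in FRG-7dNTBC livers and 76.0 ± 13.2 in FRG+NTBC livers, a 5.55-fold rise (log2 fold change 2.47, SE 0.26, adjusted p = 0.000444). Abcb1a, a drug efflux pump, Alas1, the entry enzyme of heme synthesis, and Abcc2, the canalicular exporter of conjugates, rose 6.59-fold, 5.79-fold and 3.63-fold, and Abcc3 rose by less (0.45). Slco1a4, an uptake carrier, fell (-1.94), a call lost without FRG-7dNTBC replicate 1 or FRG+NTBC replicate 1 or 2. Cyp3a11, the usual readout of PXR, gave -0.23 (95% interval -0.54 to 0.08) and did not pass at intensities near the top of the scale.

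HNF4α targets were lower in 5 of 11 and higher in 1 (median -0.25). Cyp7a1, the rate-limiting enzyme of bile acid synthesis, which SHP represses and LRH-1 activates, averaged 128 ± 33.6 in FRG-7dNTBC livers and 2590.4 ± 659 in FRG+NTBC livers, a 20.3-fold fall (log2 fold change -4.34, SE 0.23, adjusted p = 3.12e-05). Cyp8b1, the clotting factors F9 and F12 and the urea cycle gene Otc also fell (-1.13, -1.90, -0.70 and -0.95), Mttp rose (1.37), and the abundant Apoc3 and Ttr did not pass. Glucocorticoid receptor targets were lower in 5 of 10 and higher in 1 (median -0.82). Pck1 and Tat, enzymes of gluconeogenesis and tyrosine breakdown, fell 5.57-fold and 3.79-fold, Klf9, Tsc22d3 and Per1 fell 2.62-fold, 2.42-fold and 1.87-fold, and Sgk1 rose 3.29-fold. Fkbp5, the other common readout, gave 0.42 (95% interval 0.07 to 0.77) and did not pass, and without FRG+NTBC replicate 3 the count of higher targets was 2.

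Thyroid hormone targets held the largest single difference of all target lists. Thrsp, a lipogenic gene, averaged 102 ± 46.8 in FRG-7dNTBC livers and 9076 ± 864 in FRG+NTBC livers, a 95.7-fold fall (log2 fold change -6.58, SE 0.31, adjusted p = 2.14e-05), and Dio1, the deiodinase of liver, averaged 55.6 ± 24.5 in FRG-7dNTBC livers and 871 ± 630.5 in FRG+NTBC livers, a 13.8-fold fall (log2 fold change -3.79, SE 0.51, adjusted p = 0.00126). Me1 rose (0.48), a call lost under either scaling and without any mouse other than FRG-7dNTBC replicate 1, and the other 2 of 5 did not pass (median 0.23 over the 5). Of 6 retinoic acid receptor targets, Cyp26a1 and Dhrs3 fell (-1.56 and -1.20) and Cyp26b1 rose (1.45), the median being -0.07. Without FRG-7dNTBC replicate 2 or 3, or FRG+NTBC replicate 1 or 3, 1 of the falls was left.

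**Figure D4:**
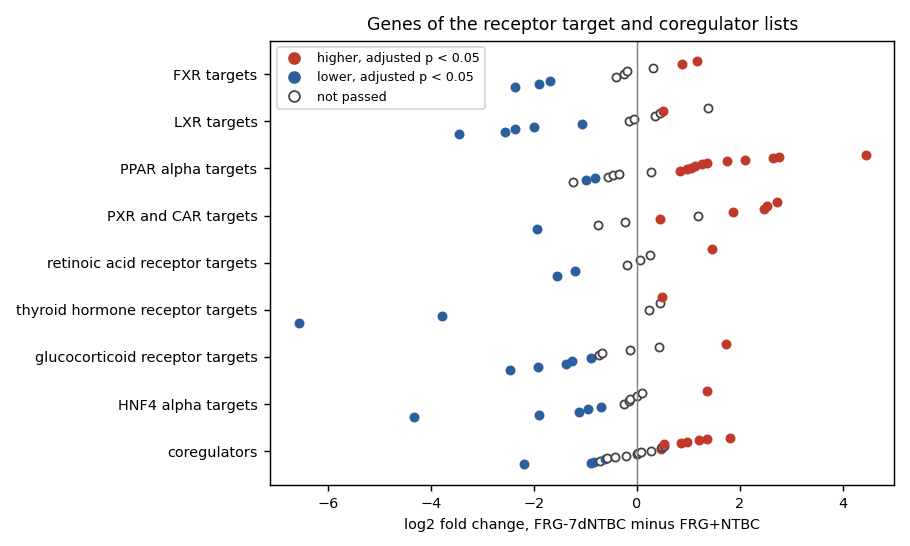
Log2 fold change (x axis, FRG-7dNTBC minus FRG+NTBC) of each gene in 8 receptor target lists and the coregulator list, with 1 point per gene and filled points for an adjusted p under 0.05. PPARα and PXR and CAR targets lie mostly right of 0 (11 of 18 and 5 of 9 rose, against 17.4% of all genes). Glucocorticoid receptor, HNF4α, LXR and FXR targets lie mostly left of 0 (5 of 10, 5 of 11, 5 of 11 and 3 of 9 fell, against 12.7%).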

How the data were processed

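Liver RNA of 3 FRG-7dNTBC and 3 FRG+NTBC mice, separate animals by the study's methods, was read on 1 Affymetrix mouse genome array each. The intensity values deposited by the authors had been background-corrected, quantile normalized and summarized per probe set by median polish (Robust Multiarray Analysis), and are on a linear scale. The software named in the submitters' processing notes is the Transcriptome Analysis Console. Log2 was taken here.

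Of 45037 probe sets, 34945 carry 1 gene symbol in the annotation, 932 several and 9160 none, and those with 1 symbol represented 18193 genes, each by its brightest probe set. The comparison used limma 3.58.1 under R 4.3.3, a moderated linear model (lmFit, eBayes) of the 2 groups with no covariate. The Benjamini-Hochberg adjustment took in every probe set, and an adjusted p under 0.05 was the call. An exact permutation test of 3 mice against 3 cannot go below 0.1 (two-sided), so none is given. The number of arrays limits the precision. The fit was tested on simulated data.

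The receptors, the lists of targets, coregulators and markers, and the tests were chosen with earlier results of these data known. Receptors past the call or 2-fold are given with all 6 values, the others by difference and interval, with all 6 values added for Rxrb, Nr5a2 and Rora after they were seen. Of the target, coregulator, clock and other receptor lists, up to 4 called genes with the largest change and the best known member are named, and further members, markers included, were named after their values were seen. Genes without a probe set of their own, such as Nr1h2, were not analysed here. The authors' comparison tables hold fold changes and p-values and were not used.

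Alternatives were 75th percentile scaling, quantile normalization, leaving out dim probe sets (mean log2 under 5), trend and robust moderation, no moderation, a 2-fold limit, a block for the replicate number, leaving out probe sets that may match several transcripts (s_at and x_at), the mean of all probe sets, and leaving out each mouse.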

Additional observations from a re-analysis of the deposited data

How the results depend on the processing

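Of the alternative values of the receptors' log2 fold changes, 418 kept their direction and side of the threshold, 49 lost the call, 6 gained one, 9 moved and 3 reversed: Nr4a2 gave 0.0199 and Hnf4a 0.157 without s_at and x_at probe sets, and Hnf4a gave 0.0116 with the mean of all probe sets. The cause was not tested. The 18 receptors that fell numbered 20 under 75th percentile scaling, which moved the median of all genes to -0.18, and 20 under quantile normalization, 18 without dim probe sets, 17 with trend and robust moderation, 16 without s_at and x_at probe sets, 15 with the mean of all probe sets, 10 without moderation and 9 with a 2-fold limit. Leaving out single mice gave 10 to 16, with 10 without FRG+NTBC replicate 2. The 2 that rose numbered 0 without moderation and 1 to 2 with a mouse left out. Coregulators rose in 8, in 5 under 75th percentile scaling, quantile normalization or trend and robust moderation, in 3 without moderation or with a 2-fold limit, and in 5 to 7 with a mouse left out. They fell in 4, in 1 without moderation or with a 2-fold limit, and in 1 to 5 with a mouse left out (1 without FRG+NTBC replicate 2, 2 without FRG-7dNTBC replicate 1). Receptor targets rose in 23, and in 14 without moderation. Mice of equal number did not deviate together (r = 0.106, 0.034 and -0.156). With 3 mice a group, this cannot decide whether mice of equal number were paired. With the replicate block, 16 receptors fell and 2 rose, Hnf4a and Nr2c1 losing the call, and the other nuclear receptors and thyroid hormone targets lost calls (1 lower and 0 higher). The number of arrays, 3 a group, limits what small differences can show, and for the 8 receptors near the floor of the arrays a change could be missed.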
